A study of Mus musculus with 140 samples.

Results

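The genes described here are 5 transcription factors of the primed epiblast: Otx2, Foxd3, Sall2, Pou3f1 (also called Oct6) and Zic2. Every probe set that the array annotation assigns to exactly 1 of these genes was taken, which gave 6 of the 45265 probe sets on the A and B arrays of the Affymetrix mouse 430 set. All 6 lie on the A array and all 6 were among the 32992 probe sets tested. Otx2 (1425926_a_at), Foxd3 (1422210_at), Sall2 (1416638_at) and Zic2 (1421301_at) had 1 probe set each, and Pou3f1 had 2 (1422068_at and 1460038_at). CCE, a male line of mouse embryonic stem cells from strain 129/Sv, was used throughout. In 7 courses the cells were transduced with a short hairpin RNA (shRNA) whose target was Nanog, Oct4 (encoded by Pou5f1), Sox2, Esrrb, Tbx3, Tcl1 or a transcript labelled Mm343880, and in the reference course with the empty H1P vector. These 8 courses were kept in LIF (leukaemia inhibitory factor, the cytokine that holds the cells undifferentiated) at 1000 units/ml, and GFP+ cells were sorted every day, with day 0 set at 48 hours after transduction. In a ninth course the labels give 5 µM retinoic acid without LIF, and name neither a vector nor a sort, nor whether its day 0 sample had already received retinoic acid. Its differences from the empty vector therefore cannot be told apart from those of transduction, sorting or LIF. Courses ran from day 0 to day 7, or to day 6 for Mm343880 and retinoic acid, with 1 sample per day and no replicate transductions, 70 samples in all. P-values therefore measure the spread of the samples around a smooth curve over time, and that spread may be partly technical.

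Embryonic stem cells correspond to the naive epiblast of the blastocyst. After implantation the epiblast becomes primed: it keeps Oct4 and Sox2, loses much of the naive network and takes up factors that prepare it for germ layer formation. Otx2, a homeodomain factor of the head and forebrain, is known to drive the exit from the naive state and to guide Oct4 to new enhancers. Foxd3, a forkhead factor, is needed for the epiblast and later marks the neural crest. Pou3f1, a POU factor related to Oct4, rises as the cells become primed and later acts in neural and Schwann cells. Sall2 is a zinc finger protein of the Spalt family, to which the stem cell factor Sall4 also belongs. Zic2, a zinc finger factor of the developing forebrain, binds enhancers in stem cells before and after priming.

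In GRCm38.p6 the RefSeq table places Otx2 on chromosome 14 at 48656781 to 48667644, Sall2 at 52311177 to 52328670 and Zic2 at 122475384 to 122480328 of the same chromosome. Foxd3 lies on chromosome 4 at 99656299 to 99658671 and Pou3f1 at 124657646 to 124660655. Start site windows from 250 bases before to 50 bases after a RefSeq start were matched for 3 of the 5 genes: 4 for Otx2, 1 for Foxd3 and 2 for Sall2. Windows of Otx2 and Foxd3 are shown because both genes fell in the same 3 courses. Capitals mark the reverse complement of TAATCC, the core that OTX proteins recognise.
Otx2, chr14:48665060-48665359, minus strand: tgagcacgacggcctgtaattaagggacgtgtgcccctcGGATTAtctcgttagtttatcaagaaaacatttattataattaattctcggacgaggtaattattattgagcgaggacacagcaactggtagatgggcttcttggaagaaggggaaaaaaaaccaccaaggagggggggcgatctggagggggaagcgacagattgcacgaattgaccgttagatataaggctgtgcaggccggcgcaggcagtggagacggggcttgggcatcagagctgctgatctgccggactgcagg
Foxd3, chr4:99656049-99656348, plus strand: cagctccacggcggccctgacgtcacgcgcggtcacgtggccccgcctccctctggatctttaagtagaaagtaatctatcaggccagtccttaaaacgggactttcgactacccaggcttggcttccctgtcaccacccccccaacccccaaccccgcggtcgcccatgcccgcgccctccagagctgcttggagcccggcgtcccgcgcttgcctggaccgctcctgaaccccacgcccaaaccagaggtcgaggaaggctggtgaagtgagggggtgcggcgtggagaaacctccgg
Both strands were searched for the octamer ATGCAAAT of Oct4 and its relatives, the SOX core ACAATG, the nuclear receptor half-site AGGTCA, its extended form AAGGTCA, which holds AGGTCA and is the form that Esrrb binds, and TAATCC. Among all 32851 windows these occurred in 1.74%, 12.6%, 16.3%, 4.72% and 7.06%, respectively. In the 7 windows of the members the search found 1 match, the TAATCC core 211 bases before the start in the Otx2 window above. A match is a run of letters and not a bound site.

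The question of the design was how the cells' RNA changes day by day when a regulator is lost. Of every probe set, an early offset (the mean of the fitted curve over days 0 and 1), a late difference (days 4, 5 and 6) and the later change (late minus early) were compared with the empty vector, with limma and a Benjamini-Hochberg adjusted p threshold of 0.05. Folds are on the scale log2(signal + 63.1), which understates the change of low signals. The samples left out, 1 at a time, were those of the value's own course and of the empty vector. A day left out of either course also left the averages of both. Without a day 1 sample the early offset is thus that of day 0 alone, and without a day 0 sample that of day 1 alone. All 8 comparisons use the same empty vector samples and so are not independent. In bulk RNA, fewer cells of a type and less RNA per cell cannot be told apart. Each of the 6 courses with a named target showed that gene below its same-day reference on 8 of 8 days, by 2.69-fold for Esrrb to 6.78-fold for Nanog. The target of Mm343880 was not analysed here. Array medians on the A arrays were 236 to 383, and 265 to 383 in the retinoic acid course.

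Of the 48 early offsets of the members (6 probe sets in 8 courses), 11 passed, 8 higher and 3 lower. Members passed in 1 of 6 for Nanog (background over all probe sets tested 0.727%), 1 for Oct4 (2.16%), 2 for Sox2 (1.99%), 3 for Esrrb (1.16%), 2 for Tbx3 (2.16%), 0 for Tcl1 (0.852%), 0 for Mm343880 (0.494%) and 2 for retinoic acid (7.07%). Of the 48 late differences 17 passed, 10 higher and 7 lower. These were 0 of 6 for Nanog (background 15.6%), 2 for Oct4 (11.4%), 3 for Sox2 (16.5%), 3 for Esrrb (8.56%), 2 for Tbx3 (8.04%), 1 for Tcl1 (6.47%), 2 for Mm343880 (11.6%) and 4 for retinoic acid (43.6%). Later changes beyond the empty vector passed in 7 of 48, 2 higher and 5 lower. They numbered 0 of 6 for Nanog (background 1.88%), 1 for Oct4 (0.703%), 0 for Sox2 (1.28%), 1 for Esrrb (0.876%), 0 for Tbx3 (0.364%), 0 for Tcl1 (0.0364%), 1 for Mm343880 (0.997%) and 4 for retinoic acid (17.9%). Within the empty vector course itself no member passed (0 of 6, background 0.458%, 151 probe sets). No member rose or fell late in the Nanog course by this test. With 6 probe sets, a count of 0 cannot be told from that background of 15.6%.

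**Figure D1:**
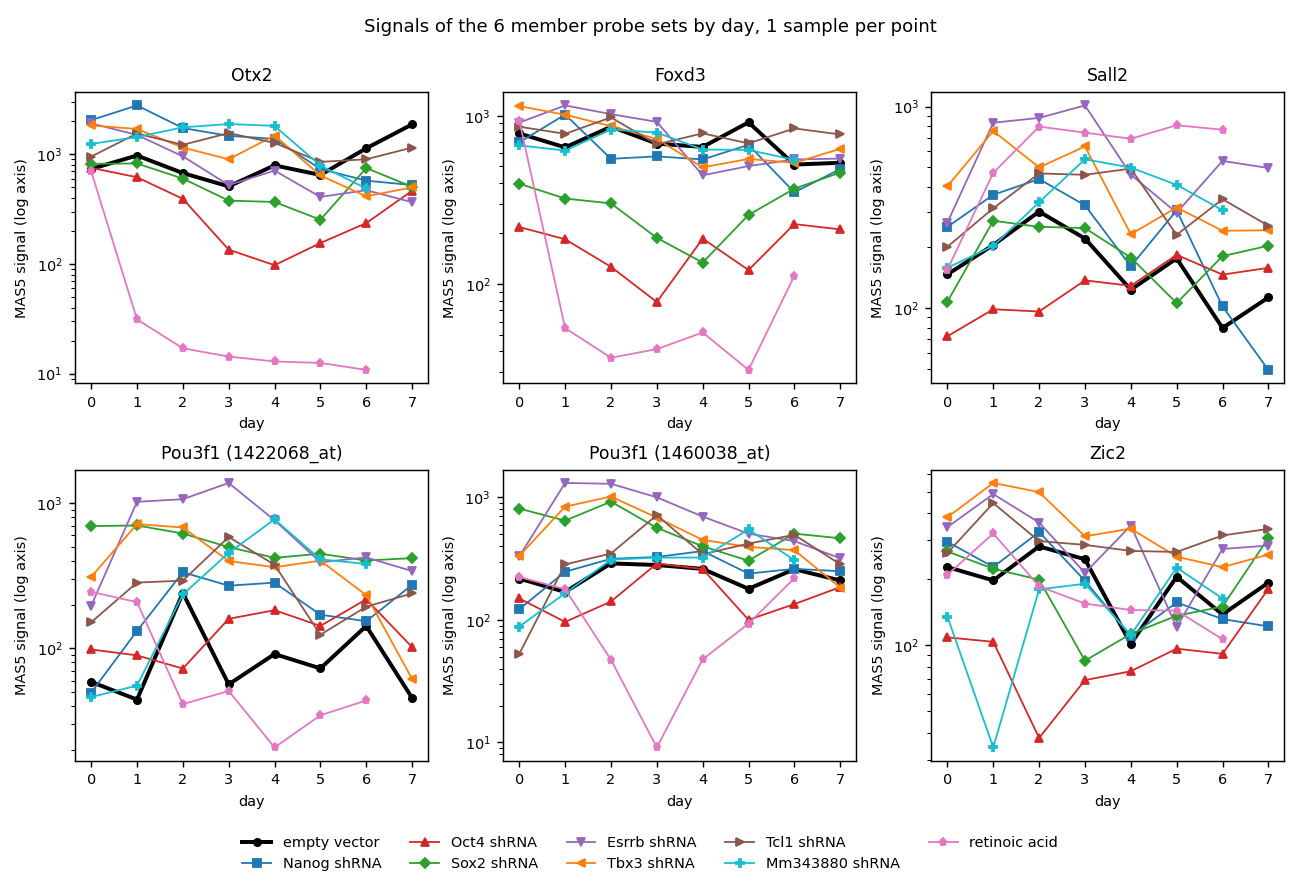
Signal of each member probe set (y, log axis, as deposited) against day (x) in the 9 courses, with 1 sample per point and the empty vector as the thick black line. Otx2 and Foxd3 drop in retinoic acid between day 0 and day 1, from 699 to 31.2 and from 935 to 54.9, while Sall2 climbs from 155 to 469.

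Otx2 started high after Nanog loss and passed as lower on days 4 to 6 after Oct4 or Sox2 loss and in retinoic acid. Day 7 lies outside those days. There the Nanog, Oct4, Sox2, Esrrb and Tbx3 samples read 365 to 523, Tcl1 1149 and the empty vector 1870. In the empty vector the Otx2 signals from day 0 to day 7 were 734, 973, 673, 509, 792, 647, 1132 and 1870, so the reference itself was highest on the final 2 days. In the Nanog course they were 2045, 2784, 1732, 1471, 1380, 733, 574 and 523. This course lay above the empty vector on 6 of 8 days, through day 5, and below it on the last 2. The early offset was log2 1.42 ± 0.32 (SE), 2.67-fold (adjusted p = 0.0169), and the late difference of 0.05 ± 0.27 did not pass (adjusted p = 0.947). The later change of -1.37 ± 0.42 missed the threshold (adjusted p = 0.0784). It passed without the day 4 sample of the empty vector (-1.61, adjusted p = 0.0344) or of the Nanog course (-1.87, adjusted p = 0.00769). The later change also passed with the table median as pseudocount (-1.18, adjusted p = 0.0242) and with quantile normalization (-1.51, adjusted p = 0.0434). With only the courses compared (adjusted p = 0.0464) and with array weights (-1.26, adjusted p = 0.00445) it passed as well. The early call was lost without the empty vector sample of day 0 (1.16, adjusted p = 0.181) or day 1 (1.52, adjusted p = 0.388), or the Nanog sample of day 1 (1.23, adjusted p = 0.759). It was also lost with means of the days in place of curves (1.43, adjusted p = 0.622), with day as a block (1.43, adjusted p = 0.467) and without day 0 of all courses (1.41, adjusted p = 0.235).

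The Esrrb and Tbx3 courses showed a similar course of Otx2 values, with less support. Esrrb shRNA gave 1911, 1499, 956, 523, 709, 408, 470 and 365 from day 0 to day 7. Tbx3 shRNA gave 1829, 1700, 1149, 900, 1481, 640, 413 and 498. On days 0 and 1 all 4 samples exceeded both empty vector samples, yet the early offsets of 0.999 ± 0.32 (Esrrb, adjusted p = 0.111) and 1.04 ± 0.32 (Tbx3, adjusted p = 0.0759) missed the threshold. The later change of Esrrb passed at -1.64 ± 0.42 (3.13-fold, adjusted p = 0.0411), that is, Otx2 fell over this course relative to the empty vector. Leaving out any 1 of 10 samples ended that call: empty vector days 0, 2 and 6 (-1.12, -1.62 and -1.33) or Esrrb days 0, 1, 2, 3, 5, 6 and 7 (-1.56, -1.81, -1.62, -1.60, -1.56, -1.38 and -1.64). It was also lost in 6 alternatives, among them day as a block (-1.97, adjusted p = 0.244) and day 0 of all courses left out (-1.29, adjusted p = 0.592). Without the Esrrb sample of day 4 the late difference passed instead, at -1.03 (adjusted p = 0.0234) against -0.65 ± 0.27 with it (adjusted p = 0.14). For Tbx3 the later change was -1.15 ± 0.42 (adjusted p = 0.252), and -1.76 without its day 4 sample (adjusted p = 0.0356).

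After Oct4 loss Otx2 was near the reference at first and lower later. The signals were 752, 617, 392, 135, 97.3, 155, 235 and 464. The early offset was -0.23 ± 0.32 (adjusted p = 0.926), and all 3 late samples lay below all 3 late empty vector samples. The late difference was -2.02 ± 0.27, 4.05-fold (adjusted p = 2.22e-07), and it passed in every alternative tried and with every single sample left out. The later change of -1.79 ± 0.42 passed too (adjusted p = 0.0253), but not without the empty vector sample of day 0, 4 or 6 (-1.27, -1.70 and -1.78) or the Oct4 sample of day 0, 1 or 6 (-1.80, -1.95 and -1.81). It was also lost in 5 alternatives, among them day as a block (-1.71, adjusted p = 0.412). In the Sox2 course Otx2 read 817, 823, 600, 378, 367, 253, 748 and 505, with day 6 inside the range of the reference. Its late difference was -0.95 ± 0.27, 1.93-fold (adjusted p = 0.00832), and it was lost without the empty vector sample of day 6 (-0.82, adjusted p = 0.087) or the Sox2 sample of day 5 (-0.72, adjusted p = 0.0771), and with means of the days in place of curves (-0.91, adjusted p = 0.211).

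In the retinoic acid course the Otx2 signal fell within a day below 63.1, the 20th percentile of the A table. It was 699 on day 0, 31.2 on day 1, and 17, 14.3, 12.9, 12.5 and 10.8 on days 2 to 6. The day 0 sample resembled the empty vector (734), and the later 6 samples lay below every one of the 63 samples of the other courses, whose lowest value was 97.3. The late difference was -3.45 ± 0.27, 10.9-fold (adjusted p = 1.62e-14), and it passed under every alternative and every left-out sample. Since day 0 and day 1 differed this much, the early offset of -1.47 ± 0.32 (adjusted p = 0.00274) describes neither day, and whether day 0 here precedes the treatment is not given. Without the retinoic acid sample of day 1 it was -0.25, and without the empty vector sample of day 1 -0.47, neither passing. The later change of -1.98 ± 0.42 (adjusted p = 0.000459) likewise rested on day 0: it was -0.36 without the retinoic acid sample and -0.86 without the empty vector sample of that day.

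Otx2 did not pass in any comparison for Tcl1 or Mm343880. Tcl1 shRNA samples ran from 851 to 1559 with a median of 1183, and the late difference was 0.31 (95% interval -0.22 to 0.85). The Mm343880 samples read 1241, 1434, 1758, 1884, 1814, 788 and 487, above the empty vector on 6 of 7 days. Its late difference was 0.14 (-0.40 to 0.68). Ordered by the mean of days 4 to 6, the Mm343880 (1029), Tcl1 (1006), Nanog (896), empty vector (857), Tbx3 (845), Esrrb (529) and Sox2 (456) courses each overlapped the empty vector in range. The Oct4 course (163) and retinoic acid (12.1) stood below that range.

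**Figure D2:**
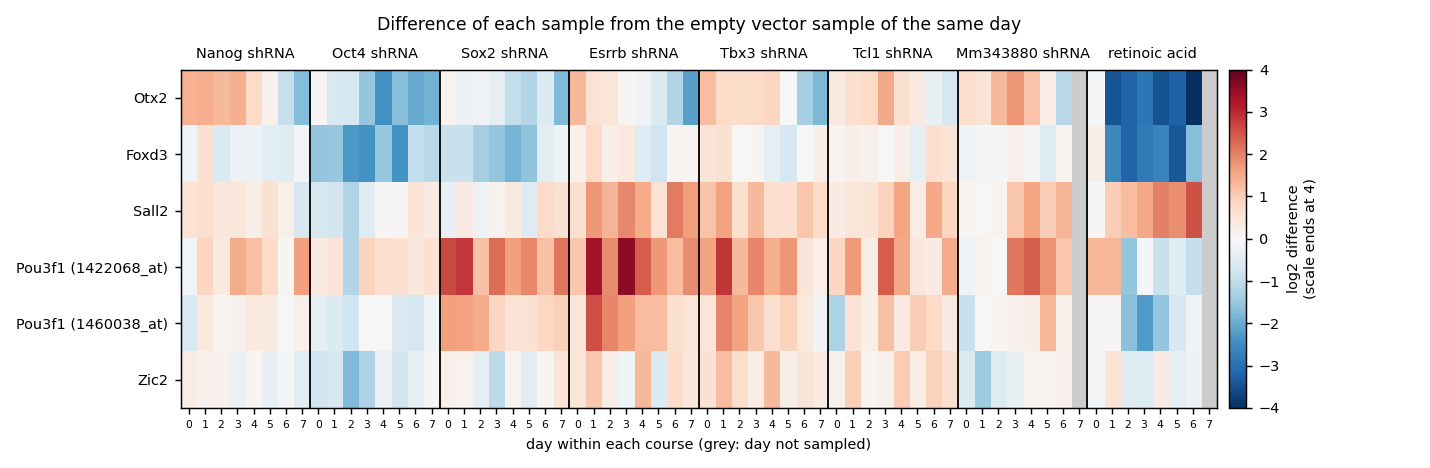
Difference on the log2(signal + 63.1) scale (colour, red higher and blue lower) of each sample from the empty vector sample of the same day, for the 6 member probe sets (rows) and the 8 courses by day (columns). Blue Otx2 and Foxd3 cells fill the retinoic acid course from day 1, the Oct4 course is blue for Foxd3 from day 0 and for Otx2 from later days, and Pou3f1 is red in the Sox2, Esrrb and Tbx3 courses.

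Foxd3 was low from the first day after Oct4 loss, lower late after Sox2 loss, and close to the reference in the other shRNA courses. The empty vector samples read 785, 649, 861, 683, 653, 913, 513 and 525.8. Oct4 shRNA samples read 219, 185, 127, 78.4, 187, 121, 227 and 212. All 8 Oct4 samples lay below all 8 empty vector samples. The early offset was -1.65 ± 0.30, 3.13-fold (adjusted p = 0.000304), the late difference -1.75 ± 0.25, 3.36-fold (adjusted p = 8.56e-07), and the later change -0.10 ± 0.39 (adjusted p = 0.982). Foxd3 thus passed on the early and on the late days, whereas Otx2 in the same samples passed on the late days and in the later change. The early call was lost without the day 1 sample of the empty vector (-1.54, adjusted p = 0.127) or of Oct4 (-1.53, adjusted p = 0.138), or with means of the days (-1.56, adjusted p = 0.0733), at nearly the same size. The late call passed in every alternative and with every sample left out.

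Sox2 shRNA samples gave Foxd3 signals of 395, 322, 302, 188, 134, 258, 369 and 460, all 8 below the lowest empty vector value of 513. The late difference of -1.34 ± 0.25, 2.53-fold, passed (adjusted p = 5.9e-05), also in every alternative and with every sample left out. The early offset of -0.92 ± 0.30 did not (adjusted p = 0.112), nor did the later change of -0.41 ± 0.39 (adjusted p = 0.796). In retinoic acid Foxd3 was 935 on day 0, then 54.9, 36.6, 41.2, 51.7, 31.0 and 112 on days 1 to 6. The late difference was -2.56 ± 0.25, 5.88-fold (adjusted p = 9.11e-12), passing in every alternative and with every sample left out. The early offset of -1.03 ± 0.30 (adjusted p = 0.0253) was again a mean of unlike days: it became 0.22 without the retinoic acid sample of day 1 and -0.26 without that of the empty vector. The later change of -1.53 ± 0.39 (adjusted p = 0.00334) became 0.19 without the retinoic acid sample of day 0 and -0.76 without that of the empty vector, and none of these 4 values passed. With day as a block neither passed (-1.18 early, adjusted p = 0.0774, and -1.28 for the later change, adjusted p = 0.0911).

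For the Nanog, Esrrb, Tbx3, Tcl1 and Mm343880 courses no Foxd3 comparison passed. Their samples ranged from 351 to 1016, 443 to 1151, 494 to 1140, 676 to 977 and 547 to 827. The late differences were -0.37 (95% interval -0.87 to 0.12), -0.42 (-0.91 to 0.08), -0.34 (-0.84 to 0.15), 0.10 (-0.40 to 0.59) and -0.16 (-0.66 to 0.33). By the mean of days 4 to 6, Tcl1 (770) came first, then the empty vector (693), Mm343880 (601), Tbx3 (524), Nanog (524) and Esrrb (498), all overlapping the range of the empty vector. Sox2 (254), Oct4 (178) and retinoic acid (65.0) lay below that range.

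Sall2 differed the other way in several courses: late, it was higher than the reference with Esrrb, Tbx3, Tcl1 or Mm343880 shRNA and in retinoic acid. Its later change passed in retinoic acid alone, and was 0.24 for Esrrb (adjusted p = 0.891) and -0.43 for Tbx3 (adjusted p = 0.727). Empty vector samples read 147, 205, 301, 221, 123, 176, 79.6 and 113, 7 of 8 under the A table median of 283.3. With Esrrb shRNA they read 266, 832, 878, 1013, 459, 297, 537 and 495, higher than the empty vector on 8 of 8 days. The late difference was 1.32 ± 0.23, 2.49-fold (adjusted p = 5.97e-05), and the early offset 1.08 ± 0.28, 2.11-fold (adjusted p = 0.0384). Without the day 1 sample of the empty vector or of Esrrb the early offset was 0.73 or 0.63 and did not pass, nor did it with day as a block (1.19, adjusted p = 0.128) or in 5 other alternatives. Tbx3 shRNA gave 402, 756, 499, 634, 233, 315, 242 and 243, also higher on 8 of 8 days. Its early offset was 1.25 ± 0.28, 2.37-fold (adjusted p = 0.00867), and it did not pass without the empty vector sample of day 0 (1.19) or day 1 (1.27) or the Tbx3 sample of day 1 (1.13). The late difference was 0.81 ± 0.23, 1.76-fold (adjusted p = 0.0183), lost without empty vector day 4 or 6 (0.69 and 0.73) or Tbx3 day 5 or 6 (0.66 and 0.80). With means of the days neither passed (1.38 early, adjusted p = 0.113, and 0.81 late, adjusted p = 0.149), nor with only the Tbx3 and empty vector courses fitted (adjusted p = 0.0553 and 0.0625).

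In the Tcl1 and Mm343880 courses the Sall2 offset was small on the first 2 days. Tcl1 shRNA gave 201, 313, 465.6, 459, 492, 231, 347 and 256, with an early offset of 0.39 ± 0.28 (adjusted p = 0.642) and a late difference of 1.05 ± 0.23, 2.07-fold (adjusted p = 0.00241). Mm343880 shRNA gave 158, 203, 335, 548, 498, 409 and 306, with 0.04 ± 0.28 early (adjusted p = 0.984) and 1.30 ± 0.23 late, 2.47-fold (adjusted p = 9.32e-05). The later changes of 0.65 ± 0.36 and 1.27 ± 0.36 did not pass (adjusted p = 0.675 and 0.0757), though the latter passed at 1.43 without the empty vector sample of day 5 (adjusted p = 0.0432). Late differences for Esrrb, Tcl1 and Mm343880 passed with every sample left out and in every alternative but the stricter filter, which left out this probe set.

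In the retinoic acid course Sall2 went from 155 on day 0 to 469 on day 1 and then to 795, 742, 692, 808 and 767. All 6 of these samples exceeded the highest empty vector sample. The late difference was 2.09 ± 0.23, 4.26-fold (adjusted p = 3.09e-10), and it passed in the same alternatives and with every sample left out. The later change was 1.62 ± 0.36, 3.08-fold (adjusted p = 0.000857), and 1.12 without the retinoic acid sample of day 0 (adjusted p = 0.0786). Without that sample the early offset of 0.47 ± 0.28 (adjusted p = 0.353) became 0.98 and passed (adjusted p = 0.0338). After loss of Nanog, Oct4 or Sox2 no Sall2 comparison passed, with late differences of 0.35 (95% interval -0.11 to 0.81), 0.20 (-0.26 to 0.66) and 0.14 (-0.32 to 0.60). Those samples ranged from 49.3 to 437, 72.4 to 184 and 106 to 271.

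**Figure D3:**
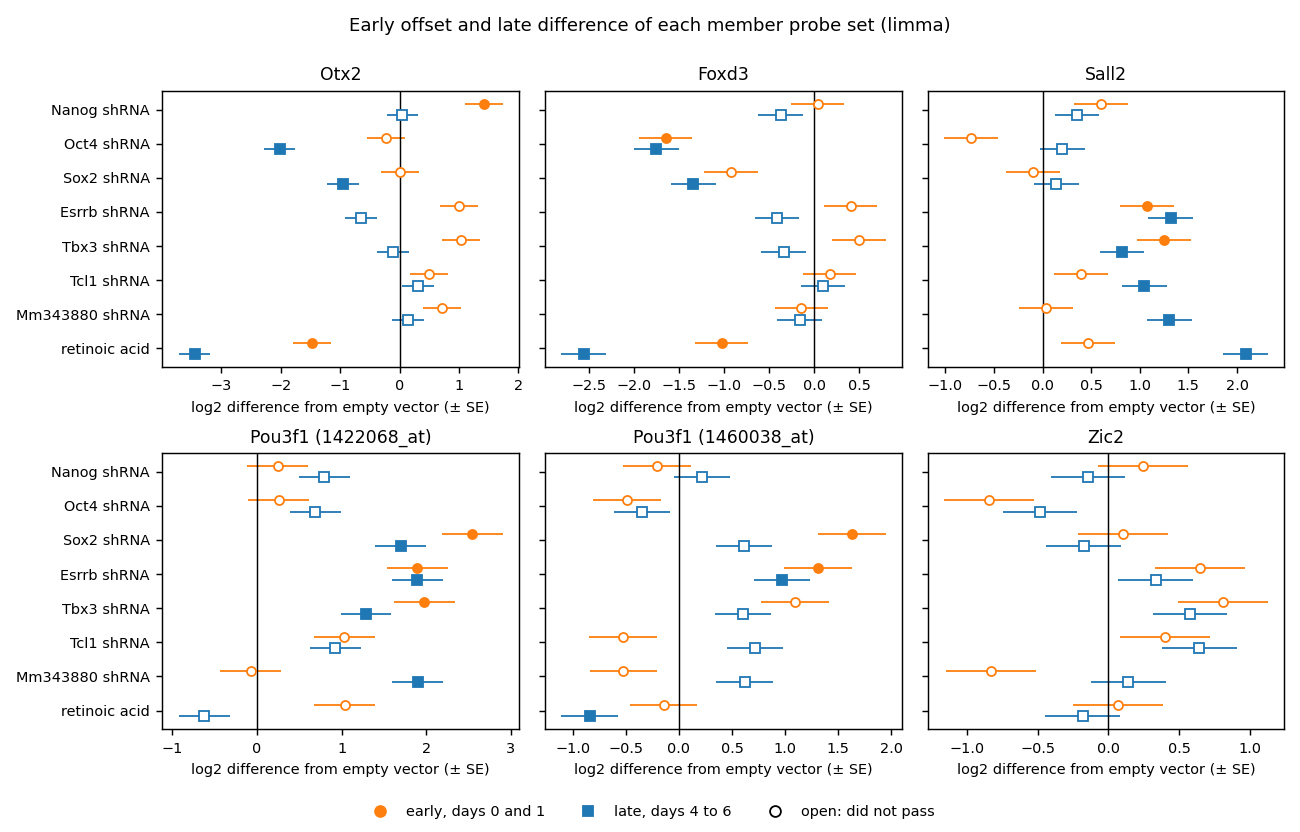
Early offset (orange circles) and late difference (blue squares) from the empty vector on the log2 scale, with the SE of the limma fit, for each member probe set and course. Filled symbols passed and open symbols did not. Foxd3 has both symbols near -1.7 for Oct4 shRNA, whereas Otx2 has the early symbol at -0.23 and the late one at -2.02.

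Pou3f1 was higher from the first days after Sox2, Esrrb or Tbx3 loss and rose late in the Mm343880 course, and its 2 probe sets did not pass together in all of these. The probe sets had a Pearson r of 0.847 over the 70 samples, as a description of libraries that share their course and day. For 1422068_at the empty vector read 58.8, 44.4, 241, 56.5, 91.4, 72.8, 143 and 45.6, with day 2 well above its neighbours. With Sox2 shRNA this probe set read 695, 702, 618, 498, 420, 448, 403 and 418, all above the highest empty vector sample. Its early offset was 2.54 ± 0.36, 5.84-fold (adjusted p = 6.69e-06), and its late difference 1.70 ± 0.30, 3.25-fold (adjusted p = 3.23e-05), both passing with every sample left out and in every alternative but that with 1 probe set per gene, which left out 1422068_at. For 1460038_at the empty vector read 218, 169, 290, 281, 261, 180, 260 and 210, and Sox2 shRNA 812, 647, 925, 565, 399, 305, 507 and 465. This probe set passed early at 1.63 ± 0.32, 3.09-fold (adjusted p = 0.00117), but not late, at 0.62 ± 0.26 (adjusted p = 0.112). Without the day 1 sample of the empty vector or of Sox2 the early value was 1.54 or 1.83 and did not pass (adjusted p = 0.18 and 0.0604), nor did it with array weights (0.97, adjusted p = 0.304) or means of the days (adjusted p = 0.0906).

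Esrrb loss gave the highest Pou3f1 signals of the study. Probe set 1422068_at read 196, 1021, 1064, 1376, 762, 392, 423 and 341, and 1460038_at read 331, 1314, 1294, 1004, 699, 506, 440 and 319. Both were above the empty vector on 8 of 8 days, with their peaks between days 1 and 3. The early offsets were 1.90 ± 0.36, 3.72-fold (adjusted p = 0.00385), and 1.31 ± 0.32, 2.48-fold (adjusted p = 0.0264). The late differences were 1.90 ± 0.30, 3.72-fold (adjusted p = 1.18e-05), and 0.97 ± 0.26, 1.96-fold (adjusted p = 0.0121). Without the day 1 sample of the empty vector or of Esrrb neither early offset passed (1.16 and 1.15 for 1422068_at, 0.78 and 0.68 for 1460038_at). Without the day 4 sample of the empty vector or of Esrrb the late difference of 1460038_at was 0.79 or 0.80 and did not pass. With day as a block the early offset of 1460038_at did not pass (1.53, adjusted p = 0.128), and with a pseudocount of 1 neither its early (adjusted p = 0.0991) nor its late value did (adjusted p = 0.0604). Nor did either with means of the days (adjusted p = 0.269 early and 0.102 late), nor the early value with a spline of 2 degrees of freedom (adjusted p = 0.0501).

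For Tbx3 the first probe set, 1422068_at, read 310, 717, 680, 399, 362, 402, 232 and 61.6, and 1460038_at read 334, 843, 1017, 685, 450, 395, 372 and 184. The first passed early at 1.98 ± 0.36, 3.93-fold (adjusted p = 0.00109), and late at 1.29 ± 0.30, 2.44-fold (adjusted p = 0.0035). Its early offset did not pass without the day 1 sample of the empty vector (1.80) or of Tbx3 (1.78), nor its late difference without empty vector day 4 (1.05, adjusted p = 0.0595). The second missed the threshold early at 1.09 ± 0.32 (adjusted p = 0.0565) and late at 0.61 ± 0.26 (adjusted p = 0.165). It did pass early without the day 0 sample of the empty vector (1.64) or the day 0 or day 7 sample of Tbx3 (1.72 and 1.09). It also passed early in some alternatives, among them quantile normalization (1.27, adjusted p = 0.031) and the stricter filter (1.09, adjusted p = 0.0431), and not in the rest.

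The Mm343880 course began at the level of the reference and rose. Probe set 1422068_at read 46.2, 55.4, 235, 454, 773, 410 and 381, with an early offset of -0.08 ± 0.36 (adjusted p = 0.973) and a late difference of 1.90 ± 0.30, 3.74-fold (adjusted p = 1.83e-05), the latter with every sample left out and in each alternative that tested it. The later change of 1.98 ± 0.47, 3.94-fold, passed (adjusted p = 0.0259), but not without empty vector day 0, 4 or 5 (1.59, 1.87 and 1.79) or Mm343880 day 1 (1.98, adjusted p = 0.13). It was also lost in 6 alternatives: day as a block (1.84, adjusted p = 0.182), means of the days (1.79, adjusted p = 0.353), only the courses compared (adjusted p = 0.241), quantile normalization (1.87, adjusted p = 0.0599), a spline with 2 degrees of freedom (1.90, adjusted p = 0.0925) and day 0 of all courses left out (2.04, adjusted p = 0.181). The other probe set read 88.3, 165, 311, 323, 323, 549 and 308, with 0.62 ± 0.27 late (adjusted p = 0.131) and 1.14 ± 0.42 for the later change (adjusted p = 0.193). Tcl1 loss gave late differences of 0.93 ± 0.30 and 0.72 ± 0.26, neither of which passed (adjusted p = 0.0521 and 0.0949). The first passed at 0.96 without empty vector day 1, 0.86 without empty vector day 2 and 1.28 without Tcl1 day 5. With a spline of 2 degrees of freedom both passed (1.14, adjusted p = 0.00558, and 0.85, adjusted p = 0.0166). Both also passed with array weights (1.05, adjusted p = 0.0255, and 0.81, adjusted p = 0.0331). The stricter filter let the first pass (adjusted p = 0.0403), and leaving out day 0 of all courses the second (0.78, adjusted p = 0.0378).

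In retinoic acid 1422068_at read 245, 208, 41.3, 50.9, 20.8, 34.6 and 43.8, and 1460038_at 224, 178, 47.3, 9.1, 47.7, 93.3 and 219. Here the drop came between day 1 and day 2, a day after that of Otx2 and Foxd3, and the second probe set was back at its starting signal on day 6. The later change passed for 1422068_at at -1.66 ± 0.47, 3.17-fold (adjusted p = 0.0094), but not without the day 0 sample of the empty vector (-1.28) or of retinoic acid (-1.42), nor in 3 alternatives (adjusted p = 0.0602 to 0.115). The late difference passed for 1460038_at at -0.84 ± 0.27, 1.79-fold (adjusted p = 0.00827), but not without the day 4 sample of the empty vector (-0.42) or of retinoic acid (-0.50), nor with means of the days (-0.79, adjusted p = 0.0851) or the table median as pseudocount (-0.39, adjusted p = 0.0517). The late difference of 1422068_at, -0.62 ± 0.30, did not pass (adjusted p = 0.0923), and passed without empty vector day 2 (-0.70) or day 3 (-0.71). Its early offset of 1.04 ± 0.36 missed the threshold (adjusted p = 0.0708) and passed without empty vector day 2 (1.22, adjusted p = 0.0165). In the Nanog and Oct4 courses no comparison of either probe set passed. For Nanog the late differences were 0.80 (95% interval 0.19 to 1.40) and 0.22 (-0.31 to 0.75). The value of 0.80 became 0.91 with day as a block and passed (adjusted p = 0.0352). With a spline of 2 degrees of freedom it was 1.03 and passed too (adjusted p = 0.0073). For Oct4 they were 0.69 (0.09 to 1.29) and -0.35 (-0.88 to 0.18), and the former passed with array weights (0.91, adjusted p = 0.021). Array weights also let the early offsets of 1460038_at pass, at -0.37 for Nanog and -0.94 for Oct4.

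Zic2 passed in no comparison of any course. Its signal was above the table median of 283.3 on 19 of 70 arrays, so most of its values are low. Empty vector samples read 227, 197, 282, 246, 101, 205, 138 and 193. The Oct4 samples read 109, 104, 37.9, 69.4, 76.2, 96.5, 91.4 and 181, below the empty vector on 8 of 8 days. Their early offset was -0.84 ± 0.32 (adjusted p = 0.221) and their late difference -0.48 (95% interval -1.02 to 0.05). With a spline of 2 degrees of freedom that late difference was -0.65 and passed (adjusted p = 0.0297). Tbx3 samples (227 to 547) and Tcl1 samples (263 to 443) were above the empty vector on 8 of 8 days, with late differences of 0.58 (0.04 to 1.11) and 0.64 (0.11 to 1.18), which did not pass (adjusted p = 0.193 and 0.147). The Tcl1 value passed with day as a block (0.72, adjusted p = 0.04) and at 0.87 without empty vector day 5, and the early offset of Mm343880, -0.83 ± 0.32 (adjusted p = 0.283), passed at -1.55 without its own day 0 sample. In retinoic acid the samples ran from 107 to 323 and the late difference was -0.18 (-0.72 to 0.35). With the pseudocount added, reference signals this low cannot show falls of the size seen for Otx2 and Foxd3 there. The interval is therefore not set against those falls.

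Across the 70 samples Pearson r on the log2 scale was 0.848 between Otx2 and Foxd3 and -0.13 to 0.54 in the other 9 pairs, with Pou3f1 read from 1460038_at. Otx2 had -0.13 with Sall2, 0.43 with Pou3f1 and 0.39 with Zic2, and Foxd3 had 0.06, 0.49 and 0.54 with the same genes. Sall2 had 0.24 with Pou3f1 and 0.48 with Zic2, and Pou3f1 and Zic2 had 0.46. Over the 63 samples without retinoic acid all 10 were above 0: 0.709 for Otx2 and Foxd3, then 0.36, 0.12 and 0.48 for Otx2, 0.59, 0.26 and 0.68 for Foxd3, 0.61 and 0.62 for Sall2, and 0.49 for Pou3f1 and Zic2, in the same order. The samples share courses, days and the scaling of each array, so these are descriptions. The genes whose signal was most like that of Otx2 were Gdf3, Enpp3, Zscan10, L3mbtl2 and Tdgf1 (r 0.86 to 0.88, n = 70). For Foxd3 they were Slc7a3, Platr10, Phc1, Enpp3 and Dpy30 (0.88 to 0.90), so Enpp3 stood in both lists. The 5 nearest of Sall2 were Sfrp2, Zcchc3, Myl9, Adgrl1 and Lmo4 (0.74 to 0.75), of Pou3f1 Vrtn, Psmb10, Pim2, Parp12 and Irf1 (0.70 to 0.76), and of Zic2 Smpd4, Gbx2, Ina, Phc1 and Fjx1 (0.67 to 0.69). Among these nearest genes, Tdgf1 and Gbx2 also stand in the list of naive genes counted below.

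Other genes of the primed epiblast were followed through a list of 22, of which 19 were tested. In the late difference 5 rose and 1 fell for Nanog, 3 and 5 for Oct4, 1 and 2 for Sox2, 5 and 1 for Esrrb, 5 and 0 for Tbx3, 4 and 0 for Tcl1, 7 and 0 for Mm343880, and 5 and 9 for retinoic acid. The list median was 0.47 for Esrrb, 0.40 for Tbx3, -0.25 for Oct4 and -0.55 for retinoic acid, beside medians of all probe sets tested of -0.01, -0.05, -0.09 and 0.16. In the Esrrb course Fgf8, a signal of the gastrulating epiblast, averaged 465 over days 4 to 6 against 21.3 in the empty vector (log2 2.59 ± 0.32, adjusted p = 8.81e-08). In the same course Cldn6, a tight junction protein of early epithelia, averaged 3436 against 1175 (1.60 ± 0.24). The list did not fall as a whole with Otx2 and Foxd3: after Oct4 loss Lefty1, an inhibitor of Nodal, fell by 2.18 ± 0.37, whereas Eomes, a T-box factor of streak and trophoblast, rose by 1.36 ± 0.19. In retinoic acid Lefty2 (-4.97 ± 0.32) and Lefty1 (-4.45 ± 0.37) fell and Sox11, a factor of neural progenitors, rose by 4.52 ± 0.38, from a late mean of 84.6 to 2367.

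Relatives of the members in the Foxd, Sall, Pou3f, Zic and Otx families gave a list of 15 with 10 tested. None rose late in any shRNA course, and 1 fell for Nanog, 3 for Oct4, 2 for Sox2 and 1 for Mm343880. Sall1 fell by 1.66 ± 0.23 after Oct4 loss and by 0.67 ± 0.23 after Sox2 loss, and Sall4, the Spalt factor of stem cells, by 0.60 ± 0.12 and 0.51 ± 0.12. In retinoic acid 3 rose and 3 fell. There Foxd2 (log2 3.39 ± 0.52) and Foxd1 (2.71 ± 0.26) rose while Foxd3 fell, and Sall4 fell by 3.37 ± 0.12 while Sall2 rose. Under quantile normalization each gene of these lists that passed late kept its direction, and the list median of the relatives in retinoic acid went from 0.02 to -0.25.

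Markers of other states were counted in the same late difference. Of 24 genes of naive pluripotency, 18 fell late for Nanog, 20 for Oct4, 21 for Sox2, 13 for Esrrb, 4 for Tbx3, 4 for Tcl1, 9 for Mm343880 and 23 for retinoic acid. The named shRNA targets are themselves in this list, so a count can include the knockdown itself. Tbx3 fell by 3.08 ± 0.27 in its own course and Tcl1 by 2.01 ± 0.22 in its own, each within the 4 falls given. Nanog, Pou5f1 and Sox2 likewise fell in their own courses. Trophectoderm genes rose late in 14 of 14 for Nanog and Oct4, 13 for Sox2, 9 for Esrrb, 8 for Tbx3, 7 for Tcl1, 8 for Mm343880 and 7 for retinoic acid, while 1 fell for Tbx3 and 5 for retinoic acid (6 rose and 6 fell there under quantile normalization). Their summed signal was 4818 to 9609 in the empty vector, 13498 to 106788 in the Oct4 course and 9685 to 116063 in the Sox2 course. In the empty vector the trophectoderm factors Cdx2 and Gata3 averaged 92.7 ± 61.3 and 20.9 ± 6.56 (SD, n = 8), below the table median. Of 13 genes of extraembryonic endoderm, 8 rose and 0 fell in retinoic acid, with sums of 8138 to 63112 against 6919 to 10543 in the empty vector. For Nanog 7 rose and 0 fell, with sums of 6117 to 36247. Rises and falls were 3 and 1 for Oct4, 4 and 1 for Sox2 and 2 and 2 for Esrrb. They were 1 and 1 for Tbx3, 2 and 0 for Tcl1 and 3 and 0 for Mm343880. Of 11 fibroblast genes 9 rose and 1 fell in retinoic acid, with sums of 21241 to 79945 against 15997 to 22203 in the empty vector. Fibroblast genes, which besides feeder cells many differentiating cells express, also rose in 6 of 11 for Sox2 and 7 of 11 for Esrrb. In each of these 2 courses 1 fell, and the sums reached 46928 and 58926. Rises and falls were 2 and 3 for Nanog, 2 and 2 for Oct4 and 4 and 1 for Tbx3. They were 2 and 0 for Tcl1 and 3 and 1 for Mm343880, where the sum reached 60571. Neural genes, beside the forebrain roles of Otx2, Pou3f1 and Zic2, rose late in 0 of 11 for Nanog, Oct4, Sox2, Esrrb, Tbx3 and Tcl1, in 1 for Mm343880 and in 4 for retinoic acid, where 3 others fell (3 rose and 4 fell there under quantile normalization). Falls in the shRNA courses numbered 3 for Nanog, 2 for Oct4, 3 for Sox2, 0 for Tbx3 and 1 each for Esrrb, Tcl1 and Mm343880. The part of these cell types in the members' values was not tested.

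**Figure D4:**
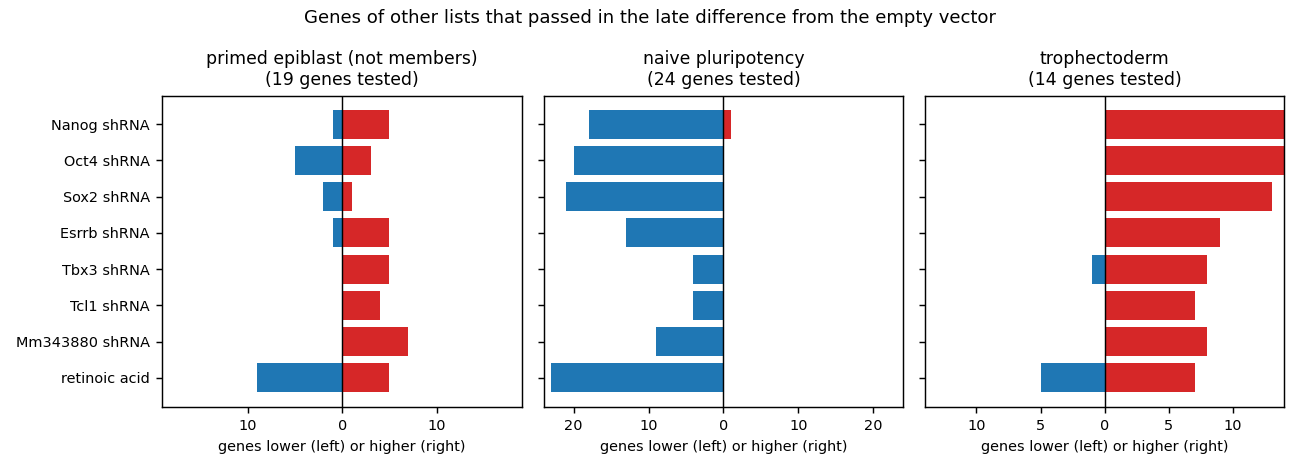
Number of genes that passed in the late difference from the empty vector, lower to the left and higher to the right (x), in each course (y), for primed epiblast genes other than the members, naive genes and trophectoderm genes. For Oct4 shRNA 20 of 24 naive genes are lower, the target Pou5f1 among them, and 14 of 14 trophectoderm genes higher. Primed genes go both ways there, 3 higher and 5 lower.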

How the data were processed

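The authors deposited 1 linear intensity for each probe set on each array, made with MAS5 per the submitters' processing notes (version not given in the sources used). The 100 control probe sets common to both designs had a trimmed mean of 2500 on all arrays, so the authors' values had been scaled on them. From the same controls, the A and B array of 1 sample differed with an SD of 0.18 (log2) for a single array. No pair of A arrays correlated above 0.983, and none was treated as a copy. The number of arrays limits the precision.

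Samples were grouped by course and day from the labels. Probe sets were named through the platform annotation (35041 name 1 gene, 936 several, 9160 none) and placed through RefSeq's GRCm38.p6 table, which also gave the start site windows. Tests ran on log2(signal + pseudocount), using each table's 20th percentile as pseudocount (63.1 on A, 21.8 on B). A probe set was tested where it exceeded the table median (283.3 for A, 89.2 for B) on at least 3 of 70 arrays. limma 3.58.1 in R 4.3.3 (lmFit, eBayes with trend) fitted a natural spline of day with 3 degrees of freedom per course, each table apart, with p-values adjusted by Benjamini and Hochberg over both and a threshold of 0.05. Intervals are 95% intervals of the fit. The fit was tested on simulated data with flat probe set means, independent noise and a constant step in the Nanog course. The simulation held no other change over time, so it does not show how the fit handles curves like those here.

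For list genes the probe set ranking highest on average was used. Named genes were every member probe set, each course's target, up to 3 list genes per course with the largest late difference that passed, and the 5 genes most correlated with each member. Cdx2 and Gata3 were named after their values were seen. The members, lists and alternatives were chosen with earlier results of these data known. Alternatives were a pseudocount of 1 or of the table median, no filter or a stricter one (75th percentile), quantile normalization, 2 degrees of freedom for the spline, means of the days without a spline, day as a block, 1 probe set per gene, only the courses compared, no trend, and each sample left out. Array weights and leaving out day 0 of all courses were added after seeing the data.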

Additional observations from a re-analysis of the deposited data

Results flagged for a closer look

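In 6 of 54 sets of samples (1 probe set in 1 course) the lowest or highest sample stood apart from the others by Dixon's criterion on the log2 scale. For independent draws chance gives about 1 in 20. These sets are successive days of a course, so that rate need not hold for them. In retinoic acid the day 0 sample stood apart for Otx2 (699), Foxd3 (935) and Sall2 (155). The Zic2 signal of Tcl1 shRNA on day 1 (443) was apart on the high side. For Pou3f1 (1460038_at) the day 0 samples of Nanog shRNA (122.5) and Tcl1 shRNA (52.9) were apart on the low side.

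In 7 cases the difference from the empty vector itself differed between the late and the early days by the test of the later change. These were -1.79 for Otx2 after Oct4 loss, -1.64 for Otx2 after Esrrb loss, 1.98 for Pou3f1 (1422068_at) in the Mm343880 course, and in retinoic acid -1.98 for Otx2, -1.53 for Foxd3, 1.62 for Sall2 and -1.66 for Pou3f1 (1422068_at).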

How the results depend on the processing

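Of the 35 member values that passed, 16 passed in the same direction under every alternative that tested them, and 13 of these also with any 1 sample of the value's own course or of the empty vector left out (15 or 16 samples in turn). Of the 115 that did not pass, 89 stayed so throughout. The 17 late calls became 13 to 24 over the alternatives and 13 to 19 with a sample left out. The 11 early calls became 21 with array weights, 7 with day as a block and 3 without the spline, and ran from 1 (without the empty vector sample of day 1) to 15 with a sample left out. The 7 later changes became 11 with array weights, 3 with day as a block, 2 without the spline and 0 without day 0 of all courses. With a sample left out they ran from 1 (without the empty vector sample of day 0) to 8, and were 4 without the retinoic acid sample of day 0. The array weights did not converge to their tolerance. Within the empty vector course 0 passed in every setting, with 0 to 0 for samples left out. Signs turned for Foxd3 in retinoic acid: the later change was 0.11 without day 0 of all courses and 0.19 without the retinoic acid sample of day 0, and the early offset 0.22 without the retinoic acid sample of day 1. With single samples left out these values ran from -2.82 to 0.19 and from -2.81 to 0.22. Fits that leave samples out hold fewer samples and average over the remaining days only, so without day 1 an early offset is that of day 0 alone. The quantity compared thus changes as well. The cause of these differences was otherwise not tested. Quantile normalization moved the median of all probe sets by -0.27 in the late difference of retinoic acid, by 0.11 to 0.19 in the early offsets of Esrrb, Tbx3 and Mm343880, and by -0.12 to -0.22 in the later changes of Esrrb, Tbx3, Mm343880 and retinoic acid. The share of higher values among all late calls went from 62.5% to 46.2% for retinoic acid and from 57.8% to 46.8% for Nanog. The labels give no replicate numbers, and the fit with day as a block pairs samples by day.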
